A study of Drosophila melanogaster with 32 samples.

Results

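The sex difference described here is that of the microRNAs (miRNAs) bound to Argonaute1 (Ago1) in whole adult flies of Drosophila melanogaster at 35 d. Members are the miRNA rows of the table of reads of up to 25 nt with a mean of at least 5 reads over the libraries compared, which holds for 199 of the 209 miRNAs listed. The libraries compared are 8 of the 32 in the series, 4 from females and 4 from males. The study precipitated Ago1 and Argonaute2 (Ago2) from flies of 2 genotypes, both sexes and 2 ages, to ask how age and loss of the transcription factor dFOXO alter their small RNAs. The 4 groups used here are dFOXO-null females, wDah females, dFOXO-null males and wDah males, all aged 35 d, each with 2 libraries numbered experiment 1 and 2. The dFOXO-null flies carry the foxo deletion allele delta94 in the wDah background, the wild-type strain of the study. Each lysate held 40 whole flies, and both sexes of a genotype were housed together before collection. A library therefore pools animals and tissues, and fewer cells of a type cannot be told apart from less RNA per cell.

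A miRNA is a short RNA cut from a hairpin precursor. One strand of the duplex, from the 5p or the 3p arm, stays in Ago1 and guides it to messenger RNAs, mainly through bases 2 to 8, called the seed, and these messengers are then silenced or degraded. Many fly miRNAs are made in few tissues, so the gonads, muscle, nervous system and epithelia each contribute their own set to a whole-body sample. Abundances below are percent of mapped reads without spike-ins, and differences are log2 values of female minus male with their standard error (SE). Where each library of a sex is given, the order is dFOXO-null experiment 1, dFOXO-null experiment 2, wDah experiment 1 and wDah experiment 2.

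The results turned on 4 sets of miRNAs. Their mature sequences, from RefSeq for genome Release 6 (dm6), are shown with the seed in capitals. The first set lies 74 bp apart on chromosome 3R, outside any other annotated gene, and had the strongest excess in females of all sequences printed. miR-994-5p is at chr3R:10408148-10408169 and miR-318-3p at chr3R:10408344-10408365, both on the plus strand.
miR-994-5p: cUAAGGAAauaguagccgugau
miR-318-3p: uCACUGGGcuuuguuuaucuca
The second set shares a seed with miR-310-3p, miR-311-3p, miR-312-3p and miR-313-3p. miR-92a-3p, at chr3R:25646560-25646581, lies in an intron of jigr1, and miR-92b-3p, at chr3R:25651457-25651478, overlaps an exon of jigr1.
miR-92a-3p: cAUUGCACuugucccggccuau
miR-92b-3p: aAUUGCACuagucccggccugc
The third set shows 1 seed from 2 places. miR-9c-5p (chr2L:16697936-16697957) and miR-9b-5p (chr2L:16698758-16698780) come from an intron of grp, whereas miR-9a-5p (chr3L:19565140-19565162) has a locus of its own inside a long non-coding RNA. Females had more of the first 2 and less of the last.
miR-9c-5p: uCUUUGGUauucuagcuguaga
miR-9b-5p: uCUUUGGUgauuuuagcuguaug
miR-9a-5p: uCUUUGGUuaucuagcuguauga
The fourth set comes from miRNA clusters known for expression in testis and was lower in females. miR-975-5p (chrX:19558768-19558790) and miR-976-3p (chrX:19558954-19558975) lie 51 bp apart as hairpins, and miR-964-5p (chr2L:5642127-5642148) lies antisense in an intron of DIP-theta.
miR-975-5p: uAAACACUuccuacauccuguau
miR-976-3p: uUGGAUUAguuaucaucaaugc
miR-964-5p: uUAGAAUAggggagcuuaacuu

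The 8 libraries held 838988 to 3524340 mapped reads in females and 1781241 to 5398798 in males, of which 98.8 to 99.5% were miRNA in females and 99.6 to 99.8% in males. Transposon reads made up 0.515 to 1.17% in females and 0.155 to 0.386% in males. The labels of sex were set against the table of reads counted on dm6 transcripts. Chorion and vitelline membrane genes, which are made in the ovary, were listed with 8 transcripts and summed to 22, 56, 11 and 13 reads in females, against 0, 14, 0 and 3 reads in males. These counts are not scaled to depth. dFOXO-null male experiment 2, the library with the most mapped reads, held more of them than either wDah female library. The other female markers sought, yolk protein genes, osk, nos and bcd, were not listed. Of the male markers only Mst84Db and roX1 were listed, with 0, 2, 0 and 4 reads in females and 0, 6, 0 and 1 reads in males, too few to check a label.

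Across all 199 miRNAs, 91 differed between the sexes (edgeR's quasi-likelihood test, adjusted p under 0.05), which is 45.7%. Of these, 42 were higher in females (21.1% of those tested) and 49 were lower (24.6%). The median log2 difference over all 199 was -0.19, and scaling by TMM moved it to -0.06 and the split to 51 higher and 37 lower. Without the experiment as a block the count was 50, with 28 higher and 22 lower. Experiment 1 alone gave 84 calls and experiment 2 alone gave 32. The 4 female values lay above all 4 male values for 30 miRNAs (15.1%) and below them for 25 (12.6%).

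**Figure D1:**
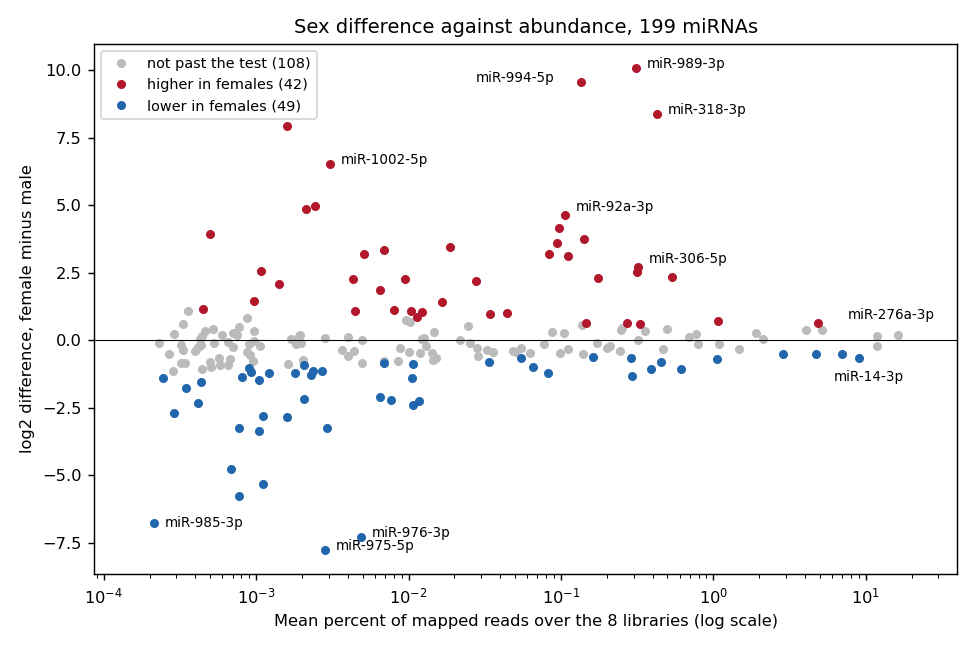
Sex difference of each of the 199 miRNAs (vertical axis, log2 of female minus male) against its mean percent of mapped reads over the 8 libraries (horizontal axis, log scale). Red points were higher in females (42), blue points were lower (49) and grey points did not pass the test (108). The largest differences lie below 1% of reads.

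The most abundant miRNAs had smaller differences than those in the range below them. Among the 16 miRNAs that averaged over 1% of reads, 7 passed the test, and the largest of all 16 differences was 0.70 on the log2 scale. Among the 36 miRNAs between 0.1 and 1%, 19 passed and the largest difference was 10.08. Among all 199 miRNAs 45.7% passed, and nothing is read from the counts of either class.

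The 3 hairpins known for expression in the ovary gave the largest excess in females. mir-318 and mir-994 are made in the follicle cells that surround the egg chamber, and mir-989 is known for its part in the migration of border cells. All 4 mature miRNAs of these hairpins passed the test and were higher in females, against 21.1% of all 199 miRNAs. Their median log2 difference was 8.97, against -0.19 for all miRNAs. Together they made up 1.74% ± 0.558 of reads in females and 0.00343% ± 0.000969 in males (SD, n = 4 each).

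miR-989-3p stood at 0.779, 1.03, 0.261 and 0.395% in females, against 0.000505, 0.000926, 0.000255 and 0.000473% in males. Its log2 difference was 10.08 ± 0.34 (adjusted p = 4.53e-45), and the lowest female library lay above the highest male library. Both dFOXO-null female libraries were above both wDah female libraries.
miR-318-3p stood at 1.10, 0.787, 0.868 and 0.652% in females, against 0.00202, 0.00182, 0.00238 and 0.00401% in males, a log2 difference of 8.39 ± 0.32 (adjusted p = 1.30e-41). Its 4 female values lay close together and did not separate the genotypes.
miR-994-5p stood at 0.468, 0.251, 0.197 and 0.163% in females, against 0.000393, 0.000278, 0.000255 and 0.000373% in males, a log2 difference of 9.55 ± 0.38 (adjusted p = 1.59e-40). The opposite arm, miR-994-3p, had 46, 34, 37 and 69 reads in females and 1 read in all 4 males together, a ratio of shares of 338 with a 95% counting interval of 59.8 to 13404. Counts in male libraries were low for all of these, at 6 to 50 reads for miR-989-3p and 6 to 15 for miR-994-5p.

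**Figure D2:**
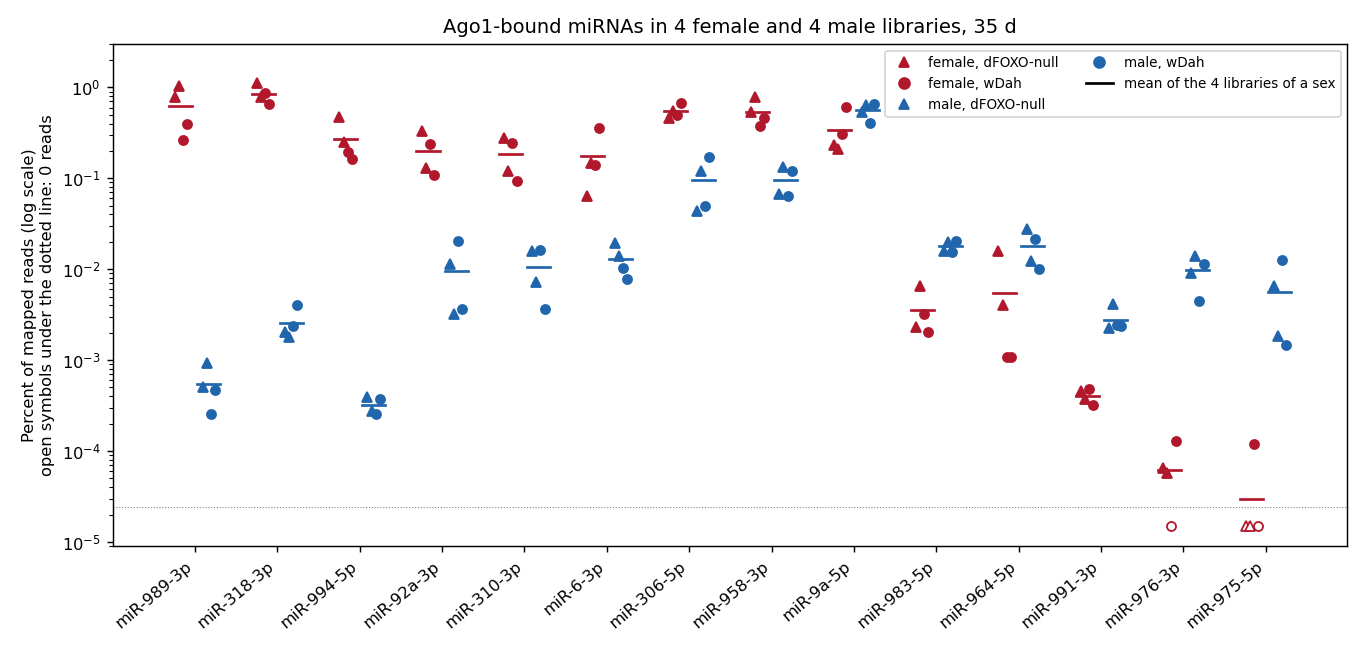
Percent of mapped reads (log scale) of 14 miRNAs in each library at 35 d, with females in red to the left of males in blue, triangles for dFOXO-null and circles for wDah. Horizontal bars are the mean of the 4 libraries of a sex, and open symbols under the dotted line are libraries with 0 reads. miR-989-3p lies between 0.261 and 1.03% in females and between 0.000255 and 0.000926% in males.

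The miR-92 seed family with the mir-310 cluster followed. In the fly miR-92a and miR-92b are known from neural stem cells, and the mir-310 cluster tunes Hedgehog signalling in the ovary. Of the 11 mature miRNAs listed for these hairpins and their neighbour mir-2498, 10 were higher in females (90.9%, against 21.1% of all miRNAs). miR-2498-5p was lower, and the median log2 difference of the 11 was 3.76. Their sum was 1.02% ± 0.451 in females and 0.0836% ± 0.0406 in males (SD, n = 4 each). The 6 miRNAs that share the printed seed were each higher in females, with log2 differences between 3.13 and 4.99.

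miR-92a-3p stood at 0.331, 0.129, 0.238 and 0.109% in females, against 0.0114, 0.00320, 0.0203 and 0.00361% in males, a log2 difference of 4.65 ± 0.30 (adjusted p = 7.79e-25). In both sexes experiment 1 held the higher values. Within experiment 1 the difference was 4.20 and within experiment 2 it was 5.12. miR-310-3p stood at 0.280, 0.119, 0.245 and 0.0928% in females, against 0.0158, 0.00721, 0.0161 and 0.00368% in males, a log2 difference of 4.17 ± 0.29 (adjusted p = 2.23e-23). It showed the same order of experiments. The largest difference of the cluster, 4.99 ± 0.48 for miR-313-3p, rested on 1 to 10 reads per male library, and was 5.76 without dFOXO-null male experiment 2. miR-92a-5p had a difference of 4.87 ± 0.51, from 0 to 11 reads per male library, and 5.86 without wDah male experiment 2.

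The genome around the mir-310 cluster held both directions. On the minus strand of 2R, mir-310, mir-311, mir-312 and mir-313 span chr2R:20583752-20584260, and mir-2498 begins 448 bp beyond mir-313 and mir-991 another 379 bp beyond mir-2498. miR-2498-5p had 1, 4, 4 and 1 reads in females and 27, 80, 25 and 55 reads in males, a log2 difference of -3.24 ± 0.53 (adjusted p = 1.39e-07), or -4.00 without wDah female experiment 1. miR-991-3p had 7, 13, 4 and 5 reads in females and 40, 223, 57 and 95 reads in males, a difference of -2.85 ± 0.45 (adjusted p = 5.63e-08). For both, every female library lay below every male library in percent, so that neighbours on the same strand ran in opposite directions.

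**Figure D3:**
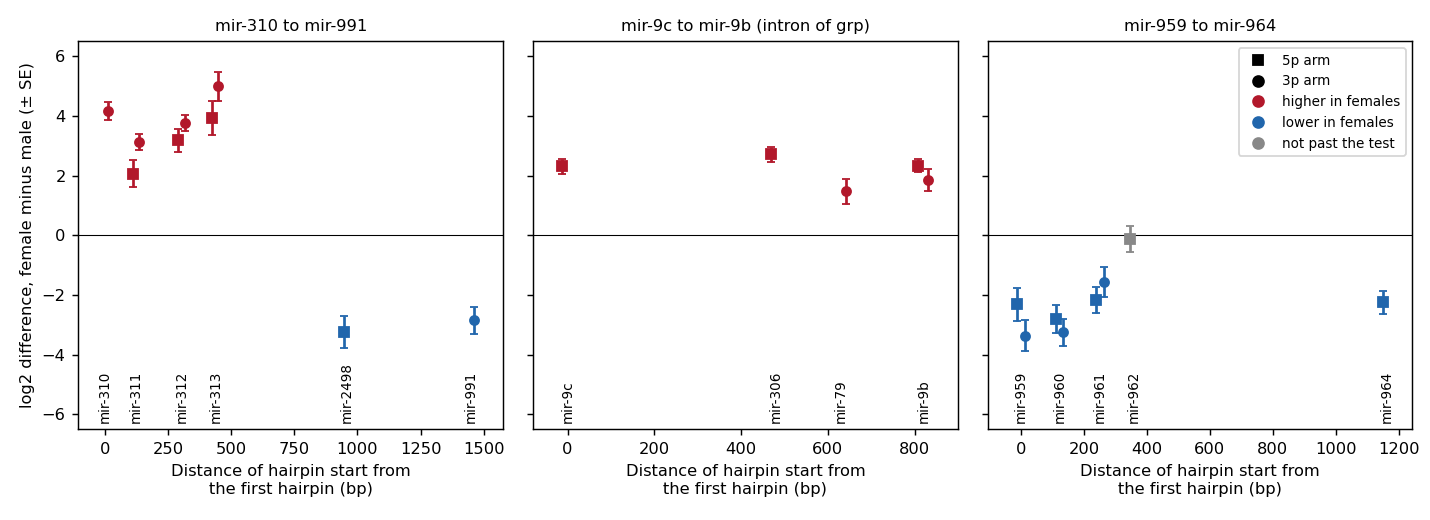
Log2 difference of female minus male, with SE bars, for the mature miRNAs of 3 clusters, placed by the distance of the hairpin start from the first hairpin in genome order (bp). Squares are 5p arms and circles 3p arms, red higher in females, blue lower and grey not past the test. The 7 points of mir-310 to mir-313 lie above 0, and those of mir-2498 (-3.24) and mir-991 (-2.85) below.

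The mir-309 cluster, whose miRNAs appear in the early embryo and clear maternal messenger RNAs, was also higher in females. All 5 of its measured miRNAs were called higher, against 21.1% of all miRNAs, with a median log2 difference of 3.34. Their sum was 0.233% ± 0.161 in females and 0.0179% ± 0.00593 in males (SD, n = 4 each).
miR-6-3p, the most abundant of them, stood at 0.0637, 0.147, 0.141 and 0.353% in females, against 0.0193, 0.0139, 0.0103 and 0.00786% in males, a log2 difference of 3.60 ± 0.34 (adjusted p = 2.75e-16). Its lowest female value was in dFOXO-null and its highest in wDah. miR-5-5p and miR-286-3p had differences of 3.45 ± 0.39 and 3.34 ± 0.41.
miR-3-3p overlapped between the sexes, at 0.00110, 0.0189, 0.000596 and 0.00998% in females against 0.000842, 0.00111, 0.000552 and 0.00137% in males. Its difference was 2.26 ± 0.48 (adjusted p = 4.08e-05). It was 0.28 within experiment 1 (adjusted p = 0.732) and 3.48 within experiment 2, and the contrast between experiments was not tested.

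The mir-9c, mir-306, mir-79 and mir-9b hairpins lie within 1 kb in an intron of grp, which encodes the checkpoint kinase Chk1. All 5 of their tested miRNAs were called higher in females, against 21.1% of all miRNAs. miR-306-5p stood at 0.458, 0.554, 0.501 and 0.668% in females, against 0.0435, 0.120, 0.0494 and 0.171% in males, a log2 difference of 2.72 ± 0.25 (adjusted p = 1.35e-16). The difference was 3.37 within experiment 1 and 2.09 within experiment 2, and male values were higher in experiment 2. miR-9b-5p stood at 1.04, 0.614, 0.927 and 0.979% in females, against 0.174, 0.190, 0.141 and 0.198% in males, a difference of 2.34 ± 0.23 (adjusted p = 1.67e-15). miR-9c-5p gave 2.32 ± 0.25.

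miR-9a-5p, which limits the number of sensory organ precursors in the fly, has the seed of miR-9b-5p and miR-9c-5p, but it ran the other way. It stood at 0.230, 0.210, 0.310 and 0.603% in females, against 0.532, 0.647, 0.405 and 0.663% in males, a log2 difference of -0.82 ± 0.23 (adjusted p = 0.00258). The sexes overlapped through wDah female experiment 2, and the call was lost without dFOXO-null female experiment 2. The sum over the 8 listed miRNAs of these hairpins was 2.08% ± 0.371 in females and 0.901% ± 0.221 in males (SD, n = 4 each).

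miR-6-3p of the mir-309 cluster has the seed of miR-2a-3p, miR-2b-3p, miR-2c-3p, miR-13a-3p, miR-13b-3p, miR-11-3p and miR-308-3p. In the fly mir-2 family members repress pro-apoptotic genes. Of 11 tested miRNAs of the mir-2 and mir-13 hairpins, 4 were higher in females (36.4%, against 21.1% of all miRNAs), 0 were lower and 7 did not pass. These 4 had differences between 0.61 (miR-2b-3p) and 1.02 (miR-13b-3p), against 3.60 for miR-6-3p, and all 4 lost their call in reads of exactly 21 nt. miR-2a-3p and miR-2b-3p were also not called without any 1 experiment 1 library except wDah male. miR-2a-3p and miR-2b-3p differ at 1 base, as do miR-13a-3p and miR-13b-3p, and since reads aligned with 1 mismatch may count at both, these are not separate measurements. miR-11-3p, at 0.743% ± 0.0792 in females and 0.836% ± 0.188 in males (SD, n = 4 each), had a difference of -0.15 ± 0.20 (adjusted p = 0.571).

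Another pair that shares a seed lies in introns of cell cycle genes, mir-995 in Cdk2 and mir-998 in E2f1. mir-11 also lies in an intron of E2f1, and neither of its arms passed (-0.15 for miR-11-3p and -0.27 for miR-11-5p). Chosen for description after its values were seen, as were miR-285-3p and miR-958-3p, miR-995-3p stood at 0.0437, 0.0406, 0.0625 and 0.0337% in females, against 0.00814, 0.0132, 0.00696 and 0.0115% in males, a log2 difference of 2.19 ± 0.32 (adjusted p = 8.12e-09). miR-998-3p stood at 0.0179, 0.0144, 0.0117 and 0.0122% in females, against 0.00522, 0.00872, 0.00501 and 0.00751% in males, a difference of 1.10 ± 0.34 (adjusted p = 0.00516). Neither overlapped between the sexes, but the call of miR-998-3p was lost without either experiment 1 library of dFOXO-null flies. miR-285-3p, the third miRNA with this seed, had a difference of -0.13 ± 0.38 (adjusted p = 0.801). miR-958-3p was the most abundant miRNA outside the groups above with a difference over 2, at 0.539, 0.785, 0.374 and 0.458% in females and 0.0678, 0.133, 0.0635 and 0.119% in males (2.51 ± 0.24, adjusted p = 4.89e-16).

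miR-1002-5p had the fifth largest excess in females and differed among the females themselves. It had 16, 4, 134 and 110 reads in females, against 0, 1, 1 and 4 reads in males, a log2 difference of 6.53 ± 0.66 (adjusted p = 4.91e-15). It reached the minimum for testing through female reads alone. The dFOXO-null females held 0.00104 and 0.000113% and the wDah females 0.0160 and 0.00704%. The sex difference was 4.31 in dFOXO-null and 6.93 in wDah, and the difference of these differences did not pass the test (-2.62 ± 2.56, adjusted p = 0.889). Without wDah male experiment 1 the difference was 5.43, and without wDah male experiment 2 it was 7.25.

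In the other direction the testis clusters led. These clusters on X and 2L, listed with mir-991 and mir-992, are known for expression in the testis. Of their 17 tested miRNAs, 16 were lower in females (94.1%, against 24.6% of all miRNAs) and 1 did not pass. The 5 from the mir-972 cluster reached the minimum for testing through male reads alone. The median log2 difference of the 17 was -2.80. Their sum was 0.0157% ± 0.00966 in females and 0.0872% ± 0.0150 in males (SD, n = 4 each), at most 0.106% in any male library.

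**Figure D4:**
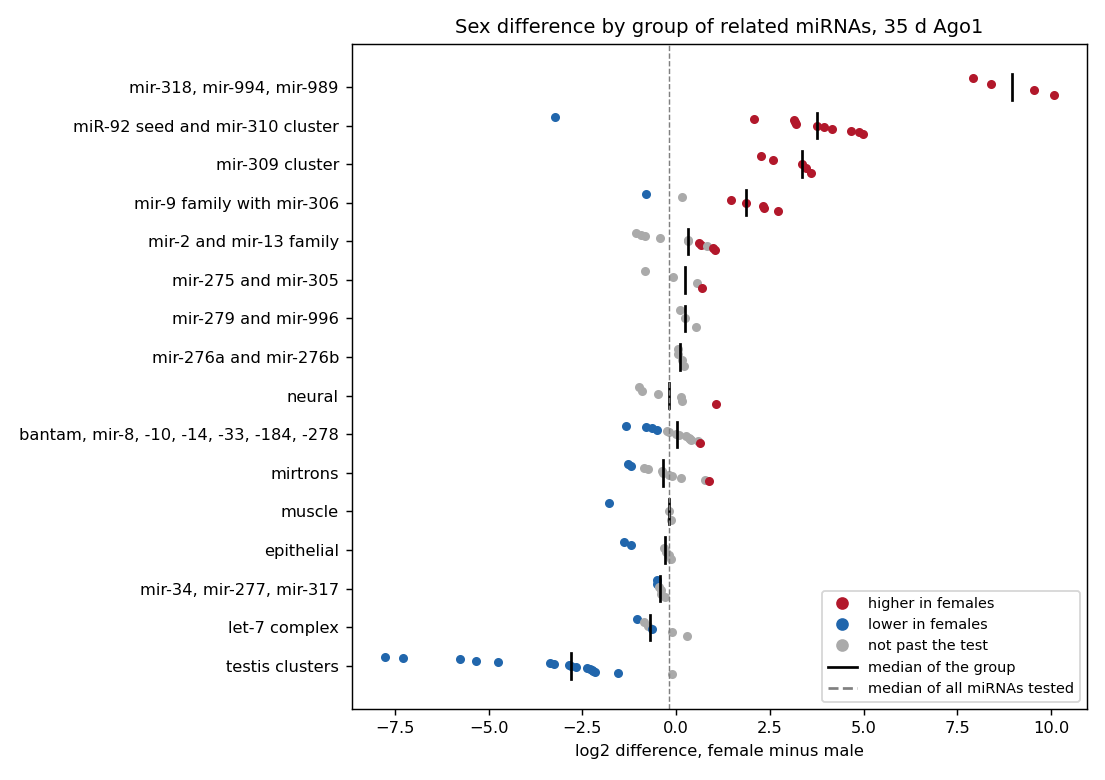
Log2 difference of female minus male (horizontal axis) of each tested miRNA in 16 groups of related miRNAs (rows). Black bars are group medians and the dashed line is the median of all 199 (-0.19). The ovary hairpins stand at the right, with a median of 8.97, and the testis clusters at the left, with a median of -2.80.

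The cluster around mir-972 on X was near the limit of detection in females. Its 5 tested miRNAs were all lower, against 24.6% of all miRNAs. They reached the minimum mean of 5 reads through male reads alone. The direction of their calls could therefore hardly have been otherwise, and the count is not read as support. The cluster summed to 0.000232% ± 0.000154 in females and 0.0205% ± 0.00200 in males (SD, n = 4 each). miR-976-3p had 1, 2, 0 and 2 reads in females, against 163, 748, 105 and 459 reads in males, a log2 difference of -7.28 ± 0.59 (adjusted p = 1.64e-19), or -6.69 without dFOXO-null female experiment 2. miR-975-5p had 0, 0, 1 and 0 reads in females, against 115, 99, 298 and 59 reads in males, a ratio of shares of 315 (95% counting interval 56.2 to 12449). miR-973-5p had 2 reads in all females together and 202 in all males, a ratio of 55.7 (15.2 to 463), and miR-4966-3p had 3 and 173, a ratio of 31.8 (10.7 to 156). miR-977-5p had 1, 1, 0 and 2 reads in females and 20, 178, 34 and 112 in males, a difference of -5.34 ± 0.62 (adjusted p = 2.76e-12), or -4.62 without dFOXO-null female experiment 2. miR-974-5p, below the minimum for testing, had 0 reads in females and 28 in males.

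Outside the clusters, miR-985-3p from X had 0 reads in all females and 4, 35, 3 and 28 reads in males, which is at least 12.9-fold lower in females against a floor of 3 reads over the 4 libraries. Its adjusted p was 8.48e-08 by edgeR, but it too reached the minimum for testing through male reads alone. This miRNA showed no female read in either genotype.

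The mir-959 cluster on 2L was measurable in both sexes and uneven within females. Its sum was 0.00869% ± 0.00951 in females and 0.0326% ± 0.0110 in males (SD, n = 4 each). miR-964-5p, its most abundant product, stood at 0.0157, 0.00400, 0.00107 and 0.00109% in females, against 0.0276, 0.0124, 0.0216 and 0.00993% in males, a log2 difference of -2.25 ± 0.39 (adjusted p = 7.89e-07). Both dFOXO-null female libraries were above both wDah female libraries, and dFOXO-null female experiment 1 reached into the range of the males. The sex difference was -1.16 in dFOXO-null and -3.66 in wDah, and the difference of these differences did not pass the test (2.49 ± 0.74, adjusted p = 0.0773). miR-960-3p and miR-959-3p had differences of -3.25 ± 0.45 and -3.36 ± 0.53. miR-962-5p, from the same cluster, was the 1 that did not pass, at 0.00188, 0.00116, 0.000358 and 0.000256% in females and 0.000842, 0.00130, 0.000637 and 0.000697% in males (-0.12 ± 0.42, adjusted p = 0.830). In the mir-982 cluster on X, miR-983-5p stood at 0.00233, 0.00650, 0.00322 and 0.00205% in females and at 0.0157, 0.0200, 0.0155 and 0.0204% in males (-2.39 ± 0.36, adjusted p = 1.95e-08).

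The 10 most abundant miRNAs carried 74.0 to 76.3% of reads in females and 79.0 to 80.3% in males, and their differences were small. Reads aligned with 1 mismatch may count at both miR-276a-3p and miR-276b-3p, so these sums need not be of distinct reads. miR-276a-3p, known for dopamine receptor control in memory, averaged 17.1% ± 1.72 in females and 15.4% ± 4.40 in males (SD, n = 4 each), and miR-1-3p, the muscle miRNA, averaged 11.4% ± 4.51 in females and 12.4% ± 1.19 in males. Neither passed the test, with differences of 0.20 ± 0.17 and -0.19 ± 0.18. miR-276b-3p (0.16 ± 0.17), which differs from miR-276a-3p at 1 base, bantam-3p (0.40 ± 0.19) and miR-184-3p (0.37 ± 0.19) did not pass either, and the last 2 passed with TMM scaling.

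Of these 10, 4 were lower in females and 1 was higher, against 24.6% and 21.1% of all 199. Nothing is read from these counts. miR-34-5p, which acts in neural ageing, stood at 5.54, 6.36, 5.89 and 5.42% in females, against 8.01, 9.20, 7.15 and 8.71% in males, with no overlap, and its log2 difference was -0.51 ± 0.18 (adjusted p = 0.0137). miR-8-3p, which promotes growth through insulin signalling in the fat body, stood at 4.53, 3.98, 4.14 and 2.84% in females and at 5.02, 5.02, 5.02 and 6.99% in males (-0.52 ± 0.19, adjusted p = 0.0194). miR-277-3p, a regulator of branched-chain amino acid breakdown, averaged 2.37% ± 0.824 in females and 3.39% ± 1.29 in males (-0.50 ± 0.19, adjusted p = 0.0217). These 3 kept their direction but did not pass with TMM scaling (adjusted p of 0.0983, 0.108 and 0.110) or with DESeq2 (adjusted p of 0.0634, 0.111 and 0.0734). Their calls were also lost without 1 library: for miR-34-5p any of the dFOXO-null libraries except female experiment 2, for miR-8-3p either wDah male, wDah female experiment 2 or dFOXO-null male experiment 2, and for miR-277-3p wDah female experiment 1 or any dFOXO-null library.

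miR-14-3p, which acts in cell survival and fat metabolism, varied with the experiment. It stood at 8.67, 2.58, 10.3 and 4.24% in females, against 16.6, 4.02, 22.4 and 3.89% in males, and both sexes were higher in experiment 1. The log2 difference was -0.65 ± 0.18 (adjusted p = 0.00235). Within experiment 1 it was -1.03 (adjusted p = 0.000927) and within experiment 2 it was -0.26 (adjusted p = 0.517), a contrast that was not itself tested. Without wDah male experiment 1 the adjusted p was 0.0689. miR-956-3p was higher in females, at 8.16, 3.62, 7.08 and 4.45% against 3.35, 2.53, 6.99 and 2.46% in males (0.65 ± 0.19, adjusted p = 0.00286), and its adjusted p was 0.0564 without dFOXO-null female experiment 1 and 0.0751 without dFOXO-null male experiment 1. It also missed the threshold with DESeq2 (adjusted p = 0.0598) and within experiment 2 (adjusted p = 0.119).

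In the other groups the share called lay nearer to that of all 199 miRNAs, where 24.6% were lower and 21.1% higher in females, and with 3 to 6 miRNAs each nothing is read from it. In the let-7 complex, which times late development, 2 of 6 miRNAs were lower in females and 4 did not pass, with a median of -0.70. miR-125-5p stood at 0.286, 0.142, 0.287 and 0.166% in females and at 0.833, 0.213, 0.982 and 0.207% in males (-1.06 ± 0.23, adjusted p = 8.73e-05), with overlap. Its difference was -1.66 within experiment 1 and -0.45 within experiment 2, where it did not pass by edgeR (adjusted p = 0.293). let-7-5p was lower in reads of up to 25 nt (-0.64 ± 0.25, adjusted p = 0.0319) but higher in reads of exactly 21 nt (1.13), and the call was lost without 1 library for 6 of the 8 libraries, all but dFOXO-null female experiment 1 and wDah female experiment 2. In the epithelial group, miR-263b-5p stood at 0.0366, 0.0433, 0.0484 and 0.0745% in females and at 0.133, 0.0960, 0.143 and 0.0876% in males without overlap (-1.20 ± 0.27, adjusted p = 0.000117), and 2 of 6 passed. The other, miR-263a-3p (-1.39 ± 0.57, adjusted p = 0.0372), lost its call with TMM scaling (adjusted p = 0.0532), with DESeq2 (0.115) and without any 1 library except wDah female experiment 2. The group of mir-34, mir-277 and mir-317 summed to 8.49% ± 0.715 in females and 12.1% ± 1.01 in males (SD, n = 4 each), and 2 of 6 were lower. Among neural miRNAs 1 of 6 was higher (miR-1000-5p, 1.05 ± 0.34, adjusted p = 0.00840, lost without any 1 experiment 1 library except dFOXO-null female), and miR-133-5p was the 1 of 3 muscle miRNAs that was lower (-1.78 ± 0.55, adjusted p = 0.00502), from 1 to 4 reads per female library. None of the mir-276 or mir-279 and mir-996 miRNAs passed (0 of 4 and 0 of 3). miR-276a-5p and miR-276b-5p have the same sequence and are not separate measurements.

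Both arms of a hairpin were tested for 58 hairpins. The 2 arms had the same sign in 45 of the 58. In 16 hairpins both arms passed, each time in the same direction, and in 18 only 1 arm did. Among all 199 miRNAs 45.7% passed, and nothing is read from these counts. The arms differed by under 1 log2 unit in 46 hairpins, with a median of 0.55. miR-8-5p had a larger difference than miR-8-3p, at 0.237, 0.0399, 0.185 and 0.101% in females and 0.730, 0.120, 0.809 and 0.117% in males (-1.33 ± 0.25, adjusted p = 3.21e-06). The difference between arms was not itself tested. Within each genotype and sex the values of miR-8-5p were higher in experiment 1, and the sexes overlapped. Its sex difference was -1.88 within experiment 1 and -0.89 within experiment 2. By edgeR it did not pass in experiment 2 alone (adjusted p = 0.263) or without the experiment as a block (adjusted p = 0.128).

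Within each genotype the direction held for every called miRNA, but the calls were made on these same libraries, so this is no separate support. In the contrast within dFOXO-null flies 71 of 199 passed (35.7%), with 35 higher and 36 lower in females. In that within wDah flies 58 passed (29.1%), with 33 higher and 25 lower. Both contrasts set 2 libraries against 2 and come from 1 fit of all 8 libraries, so their spread is shared. Without the experiment as a block 35 passed in each genotype. The dFOXO-null count was 46 without dFOXO-null male experiment 1 and 46 without dFOXO-null female experiment 2. The sex difference itself differed between genotypes for 1 miRNA (0.503%), with 15 of 199 at an unadjusted p under 0.05. This was miR-6-3p, with a log2 sex difference of 2.56 in dFOXO-null and 4.66 in wDah, a difference of -2.10 ± 0.52 (adjusted p = 0.0139). It did not pass with TMM scaling (adjusted p = 0.0723), without the experiment block, or without any 1 of 6 of the 8 libraries (adjusted p of 0.269 to 1). miR-5-5p of the same cluster had 2.43 in dFOXO-null and 4.50 in wDah (adjusted p of the difference 0.159).

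The same contrast at 5 d came from 8 other Ago1 libraries, in a fit of all 16. At 5 d, 106 of 199 miRNAs passed (53.3%), 48 higher (24.1%) and 58 lower (29.1%) in females. Of the 42 miRNAs higher in females at 35 d, 39 were called higher at 5 d, and of the 49 lower, 37 were called lower, with all 91 of the same sign. No miRNA had a sex difference that differed between ages by edgeR (0%), with 11 at an unadjusted p under 0.05. miR-9c-5p, for example, had a difference of 2.32 at 35 d and 1.29 at 5 d (adjusted p of the difference 0.481). miR-318-3p had values of 2.12, 0.912, 3.20 and 2.28% in females at 5 d and 0.00507, 0.000383, 0.00459 and 0.00101% in males, and its log2 sex difference was 8.39 at 35 d and 9.75 at 5 d (adjusted p of the difference 0.620).

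**Figure D5:**
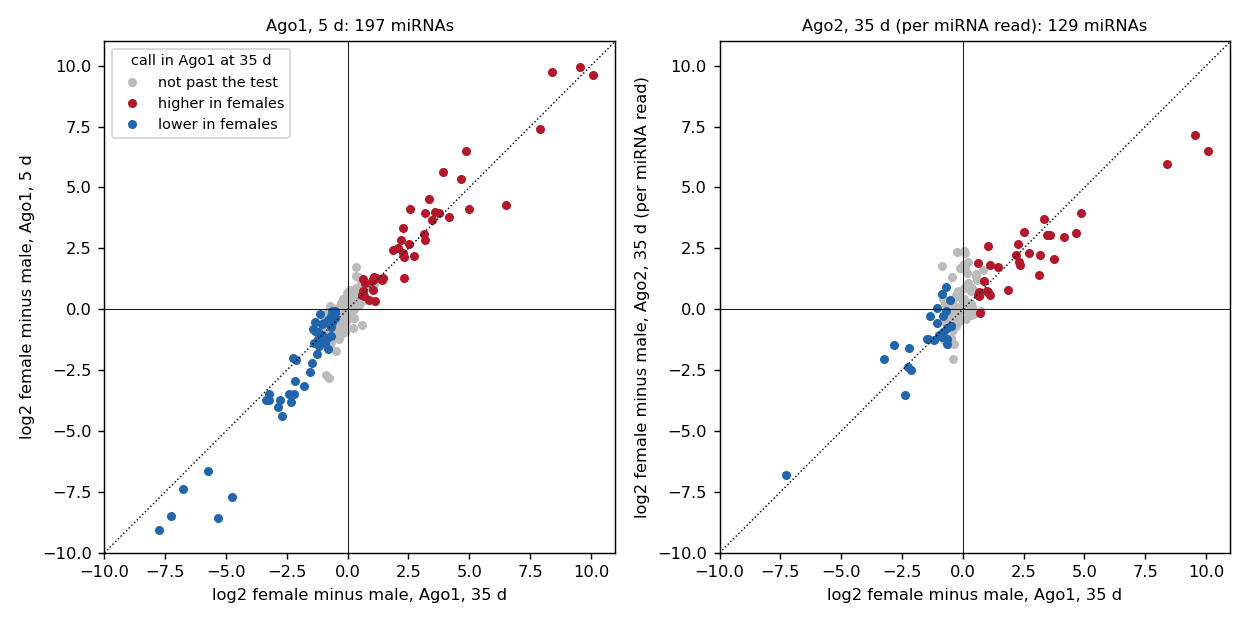
Log2 difference of female minus male in Ago1 at 5 d (left, vertical axis, 197 miRNAs) and in Ago2 at 35 d relative to miRNA reads (right, vertical axis, 129 miRNAs), each against that in Ago1 at 35 d (horizontal axis). Colours give the call in Ago1 at 35 d and the dotted line is equality. miR-989-3p, miR-994-5p and miR-318-3p stand at the upper right of both panels.

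Ago2, the Argonaute of small interfering RNAs, was precipitated separately and gave shallower libraries, with 30604 to 181160 mapped reads in females and 52421 to 242434 in males. Its differences were taken per miRNA read because transposon reads made up 30.5 to 39.3% in females and 3.99 to 14.8% in males. Of 130 miRNAs tested 60 passed (46.2%), 42 higher and 18 lower in females, and with total mapped reads as the library size the split was 35 higher and 39 lower. The Ago1 calls recurred in part: of the 31 miRNAs higher in females in Ago1 and tested in Ago2, 23 were called higher in Ago2, and of the 26 lower, 15 were called lower and 1, miR-252-5p, was called higher (named after its values were seen, 0.93 in Ago2, -0.67 in Ago1, where it was not called without either wDah experiment 1 library). miR-994-5p, with 267, 1157, 226 and 233 Ago2 reads in females and 6, 2, 3 and 12 in males, had a difference of 7.17 in Ago2. Reads of exactly 21 nt, a subset of the same Ago1 libraries, gave 63 calls among 149 miRNAs (42.3%), 31 higher and 32 lower. Of the Ago1 calls, 56 were called there in the same direction, and 1, let-7-5p, turned.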

How the data were processed

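Small RNAs bound to Ago1 were sequenced from lysates of 40 whole flies. Per the labels and the study's methods, the authors trimmed adapters with Trim Galore, selected reads by length, aligned them with Bowtie (1 mismatch, all valid positions) to miRNA and transposon sequences or to dm6, and counted dm6 features with featureCounts. Versions are not given in the sources used here. The deposited counts are whole reads per feature, without normalization. The deposited percent tables divide each count by the library total without spike-ins, and recomputed values differed by at most 0.319% of a value. Percent tables were used only for this check.

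Counts of miRNAs with a mean of 5 or more reads were fitted with edgeR 4.0.16 (R 4.3.3, limma 3.58.1) in a quasi-likelihood model with genotype, experiment and sex, with the library total without spike-ins as library size. The threshold was an adjusted p of 0.05 (Benjamini-Hochberg, all 199 miRNAs). A miRNA with few reads in 1 sex can reach the minimum mean of 5 reads through the other sex alone. The direction of its call is then no support. The fit has 4 residual degrees of freedom and borrows 84.4 from the other miRNAs, so single p-values rest largely on pooled spread. Contrasts within genotype, between genotypes and between ages used 1 mean per group with experiment as block. The fit was tested on simulated data. DESeq2 1.42.0, TMM, median-of-ratios and miRNA scaling, other filters and blocks, each experiment alone and each library left out were the alternatives.

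Libraries of the same experiment number deviated together (correlations of 0.32 to 0.81 over the 6 pairs of groups), and the number was used as a block. No replicates were copies (chi-square per degree of freedom of at least 495). No molecular identifiers were used in the counts, so intervals (95%, Clopper-Pearson) and floors (3 reads) cover counting error only. In the shallowest library, 0 reads are compatible with a share of 0.000358% or less. Replicates differ in experiment number only, and p-values measure the spread between these libraries. All 209 miRNAs matched a RefSeq mature miRNA.

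Named miRNAs are the 10 most abundant, the 10 with the largest difference in each direction among those called that moved alike in 4 of 4 female-male pairs, and examples of lists of related miRNAs. Members and lists were chosen with earlier results of these data known.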

Additional observations from a re-analysis of the deposited data

Results flagged for a closer look

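Of 60 groups of 4 libraries (30 named miRNAs, each sex), 6 held a library far from the others. Distance was the gap to the nearest value over the range (Dixon's test). The rule flags about 1 in 20 groups of 4 normal values, but these groups mix 2 genotypes and 2 experiments. A lone read among libraries with 0 reads is always flagged, as for miR-975-5p in females and miR-994-3p in males. The count of 6 is therefore not set against chance. In females the libraries flagged were wDah experiment 1 for miR-975-5p, at 0.000119% where the others had 0, and the same library for miR-2498-5p, at 0.000477%. In males they were wDah experiment 1 for miR-1-3p, at 10.6% below the others, wDah experiment 2 for miR-8-3p, at 6.99% above the others, wDah experiment 2 for miR-994-3p, at 2.49e-05% from 1 read, and dFOXO-null experiment 2 for miR-991-3p, at 0.00413%. For miR-975-5p, miR-2498-5p and miR-994-3p the library concerned held 1 to 4 reads. The sex difference of miR-6-3p differed between genotypes by -2.10 on the log2 scale (dFOXO-null minus wDah), as described above.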

How the results depend on the processing

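The count of 91 calls was 61 to 95 under the alternatives of scaling, filter, tool (DESeq2: 90), pairing by genotype and experiment (87) and use of all 16 Ago1 libraries, and 70 to 99 without 1 library. It was 50 with no replicate block, 32 in experiment 2 alone and 180 among 307 features when transposon rows were fitted together with miRNAs. Of the 91 calls, 31 passed under each of the 21 alternatives that tested them (21 higher and 10 lower in females), 56 passed without any 1 library, and let-7-5p alone turned, in 21-nt reads. With no replicate block the counts were 35 for dFOXO-null, 35 for wDah, 0 for the sex-by-genotype difference, 38 for 21-nt reads and 39 for Ago2. Without 1 library the counts were 46 to 72 for dFOXO-null, 42 to 53 for wDah, 0 to 2 for sex by genotype, 0 to 1 for sex by age, 55 to 74 for 21-nt reads and 51 to 58 for Ago2. The sex-by-genotype count was 0 with TMM and 2 with median-of-ratios scaling. Among 611 values of named miRNAs under alternatives, 563 kept their direction and call, 38 lost and 7 gained a call, and 3 turned sign, none of them called: miR-276a-3p (-0.048) and miR-276b-3p (-0.053) in experiment 2 alone, and miR-1-3p (0.35) in 21-nt reads. The summed shares of all 18 groups of miRNAs moved by less than the spread between libraries under each alternative. Fitted differences of low-count miRNAs moved most without 1 library: miR-975-5p was -7.77, but -9.50 without wDah female replicate 1 and -7.09 without dFOXO-null female replicate 1, miR-973-5p was -5.75, but -6.59 without wDah female replicate 2, miR-4966-3p was -4.76, but -5.83 without wDah female replicate 2 and -4.03 without dFOXO-null female replicate 2, miR-985-3p was -6.78, but -6.19 without dFOXO-null female replicate 2, and miR-994-3p was 7.92, but 9.01 without wDah male replicate 2. Shares under 0.001% rest on few reads, which limits miR-973-5p, miR-974-5p, miR-975-5p, miR-976-3p, miR-977-5p, miR-985-3p and miR-4966-3p in females. In males this limits miR-989-3p, miR-994-5p and miR-994-3p, among others.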

Other observations

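The calls were also counted by chromosome. Of 29 miRNAs tested whose loci are all on X, 0 were higher in females and 13 were lower (44.8%), against 21.1% higher and 24.6% lower among all 199. Without the testis clusters, 5 of 21 on X were lower (23.8%) and 0 higher, with a median of -0.39. On 3R, 13 of 46 were higher and 8 lower, and on 3L 6 of 30 were higher and 2 lower. miR-13b-3p, with 1 locus on X and 1 on 3R, was higher. Neighbours in a cluster are not independent, no test was made, and nothing is read from these counts.

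Mirtrons, miRNAs spliced from short introns, were listed with 11 rows, of which 1 was higher in females (miR-1012-3p, 0.87 ± 0.33), 2 were lower (miR-1004-3p, -1.27 ± 0.40, and miR-1017-3p, -1.21 ± 0.40) and 8 did not pass. These shares, 9.09% higher and 18.2% lower, were below those of all 199 miRNAs (21.1% and 24.6%). The call of miR-1012-3p was lost without 1 library for 6 of the 8 libraries, all but dFOXO-null female experiment 2 and wDah female experiment 1, that of miR-1004-3p without wDah female experiment 1, and that of miR-1017-3p without either experiment 1 female library. miR-986-5p, named after its values were seen, stood at 0.318, 0.424, 0.350 and 0.459% in females and at 0.815, 1.24, 0.541 and 0.733% in males without overlap (-1.05 ± 0.22, adjusted p = 2.43e-05 by edgeR).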
